A study of Drosophila melanogaster with 2 samples.

Results

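Small nuclear RNA (snRNA) genes encode the short, stable RNAs of the splicing machinery and a few relatives. Members were the genes whose biotype is snRNA in the fly annotation, which were the same genes as those whose symbol starts with snRNA:, 32 of 18277 annotated genes on 2L, 2R, 3L, 3R, 4, X and Y. They were described in a chromatin immunoprecipitation and sequencing (ChIP-seq) experiment on CG11247, a C2H2 zinc finger protein of Drosophila melanogaster. Whole embryos of 0 to 24 h, from flies carrying a CG11247-eGFP transgene, gave 1 group of 2 biological replicates, and chromatin sonicated to 200 to 800 bp was precipitated with an antibody against GFP. Every sample carried the fusion protein, no second genotype or treatment is named, and the cell types of the embryo were mixed. The labels do not name the promoter that drives the fusion.

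The pooled ranked list held 137752 candidate peaks, of which 4495 were in the authors' thresholded list and are called passing. Replicate 1 had 3010 passing of 109282 ranked peaks, replicate 2 had 2695 of 125735, and a conservative list, made from the true replicates ranked against each other, had 4093. The signal of a peak is the authors' score, has no fixed unit, and is comparable only within a list. A gene is called bound here when the summit of a passing peak lay within 500 bp of it. Numbers of reads are unknown. The control experiment was not analysed here, so that binding of CG11247 and background that precipitates with any antibody cannot be told apart.

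The U1, U2, U4, U5 and U6 snRNAs form the core of the major spliceosome. U11, U12, U4atac and U6atac serve the minor spliceosome, U7 guides the processing of histone mRNA 3′ ends, and 7SK holds the elongation factor P-TEFb in an inactive state. RNA polymerase II transcribes the U1, U2, U4, U5, U7, U11, U12 and U4atac genes, and RNA polymerase III transcribes U6, U6atac and 7SK. In both classes the activating complex SNAPc recognizes a short element upstream of the start, called the PSEA in flies, and the polymerase III genes also have a TATA box.

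The upstream sequences of the bound genes and of every U6 and 7SK gene are shown. All but that of 7SKb hold the element that the family shares. Of the genes shown, only U6:96Aa and 7SKb were unbound. Each line gives the 100 bases before the annotated 5′ end, read in the direction of transcription, from the RefSeq genome of the dm6 build. Capitals mark the word ATTCNCAA (N is any base).
snRNA:U1:95Ca, chr3R:23859631-23859730, minus strand: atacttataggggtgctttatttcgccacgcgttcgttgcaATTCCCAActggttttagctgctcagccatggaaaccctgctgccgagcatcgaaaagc
snRNA:U2:34ABb, chr2L:13215739-13215838, plus strand: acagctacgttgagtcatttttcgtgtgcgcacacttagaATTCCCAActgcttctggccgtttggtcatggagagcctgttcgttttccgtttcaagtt
snRNA:U4:39B, chr2L:21215179-21215278, minus strand: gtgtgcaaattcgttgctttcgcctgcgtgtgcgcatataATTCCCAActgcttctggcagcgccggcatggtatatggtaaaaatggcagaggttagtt
snRNA:U5:35D, chr2L:15751683-15751782, minus strand: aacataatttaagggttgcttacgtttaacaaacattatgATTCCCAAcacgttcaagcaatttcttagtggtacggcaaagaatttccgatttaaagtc
snRNA:U5:63BC, chr3L:3090701-3090800, plus strand: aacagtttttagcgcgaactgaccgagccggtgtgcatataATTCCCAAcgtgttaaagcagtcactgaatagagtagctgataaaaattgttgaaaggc
snRNA:U6:96Aa, chr3R:24555988-24556087, plus strand: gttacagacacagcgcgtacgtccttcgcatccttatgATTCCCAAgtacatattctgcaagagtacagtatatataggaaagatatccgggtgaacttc
snRNA:U6:96Ab, chr3R:24556592-24556691, plus strand: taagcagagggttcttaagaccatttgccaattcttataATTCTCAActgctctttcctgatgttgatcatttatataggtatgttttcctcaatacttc
snRNA:U6:96Ac, chr3R:24557115-24557214, plus strand: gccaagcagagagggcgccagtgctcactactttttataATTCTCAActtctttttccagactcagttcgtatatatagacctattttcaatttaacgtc
snRNA:7SKa, chr3R:7474997-7475096, minus strand: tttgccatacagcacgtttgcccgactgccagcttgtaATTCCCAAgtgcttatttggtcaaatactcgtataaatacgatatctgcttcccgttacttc
snRNA:7SKb, chr3R:23432769-23432868, plus strand: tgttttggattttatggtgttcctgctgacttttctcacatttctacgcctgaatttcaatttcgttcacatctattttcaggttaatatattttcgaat

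CG11247-eGFP summits passed at 8 of the 32 snRNA genes, or 25.0% (Wilson 95% interval 13.3 to 42.1%), through 7 distinct summits. Over all annotated genes the same rule called 21.8%, so the share of snRNA genes was close to that background. That background is made mostly of longer genes, with a median length of 1646 bp against 154 bp for the members, and a longer gene offers more room for a summit. Among the 2705 other annotated genes of at most 500 bp, 5.21% were bound, which is below the lower end of the interval of the snRNA genes. Of 23 members with over 50% of their short sequence words found elsewhere in the genome, 7 were bound, or 30.4% (15.6 to 50.9%). Each replicate alone bound 6 of them. Those words were counted over the gene alone, while the summits at the U6 pair, U5:35D and U5:63BC lay outside it. Of the 9 other members 1 was bound, or 11.1% (1.99 to 43.5%), and 0 in each replicate alone. The interval of these 9 holds 5.21%. Such intervals also count genes as independent, although the U6 pair share a summit and some copies are identical. The bound genes were U1:95Ca, U2:34ABb, U4:39B, U5:35D, U5:63BC, U6:96Ab, U6:96Ac and 7SKa. Their pooled signals ran from 98.4 to 247.3, with a median of 133.4 over the 7 summits, against a median of 120.4 over all passing peaks. These intervals cover counting error alone, and no test over samples is possible with 1 group.

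**Figure D1:**
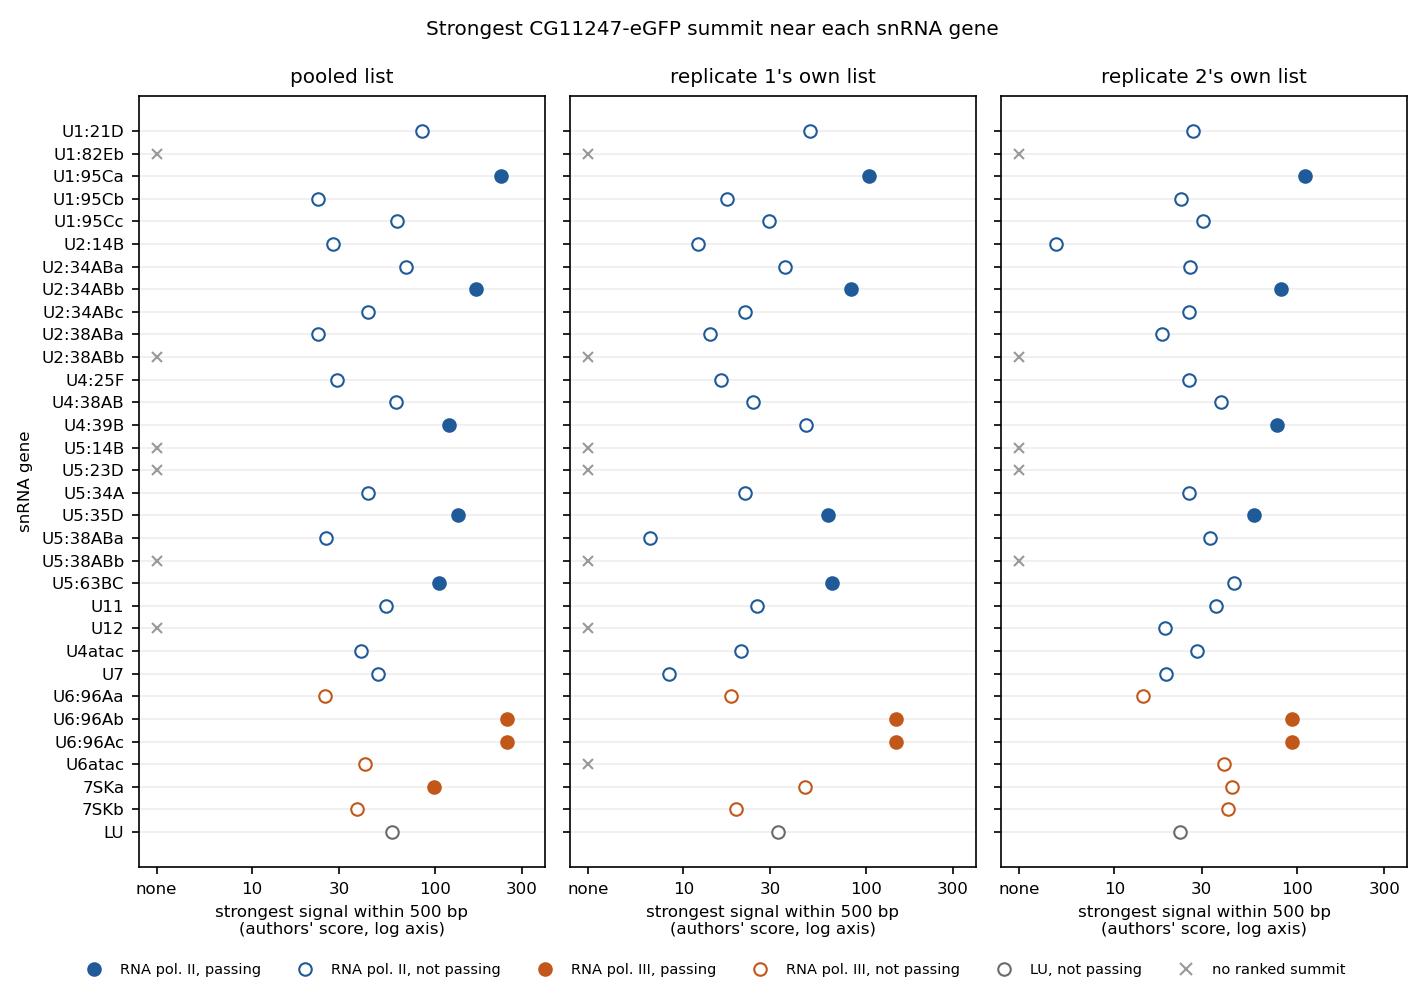
Strongest ranked summit within 500 bp of each of the 32 snRNA genes, as the authors' signal on a log axis, in the pooled list and in each replicate's own list. Filled points passed the authors' threshold, open points did not, and crosses mark genes with no ranked summit. In the pooled list the 8 filled genes lie at 98.4 or above and the others at 84.6 or below.

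Among the U1 genes, whose RNA pairs with the 5′ splice site, 1 of 5 was bound. U1:95Ca (FBgn0004185, chr3R:23859467-23859630, minus strand, between genes) had a pooled signal of 229.1. Its signal was 103.7 in the list of replicate 1 and 110.2 in that of replicate 2, and it passed in both. The summit lay 70 bp after the 5′ end, inside the gene, in a peak at chr3R:23859388-23859731. The nearest protein-coding start, that of Pli, was 30422 bp from the gene, the longest such distance of any member. U1:21D had the highest signal of any unbound member, at 84.6 pooled, 49.5 in replicate 1 and 27.0 in replicate 2, with all 3 summits inside the gene. U1:95Cc had 61.9 pooled, 29.4 and 30.4, and U1:95Cb had 23.0, 17.4 and 23.1. U1:82Eb had no ranked summit within 500 bp in any list. In each list U1:95Ca was the highest of the 5 copies.

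Among the U2 genes, whose RNA pairs with the branch point, 1 of 6 was bound. U2:34ABb (FBgn0004192, chr2L:13215839-13216030, plus strand, between genes) had signals of 168.1 pooled, 83.1 in replicate 1 and 81.8 in replicate 2, passing in both. The pooled summit lay 184 bp after the 5′ end, near the 3′ end of the gene, and those of the replicates 115 and 142 bp after it, also inside. The start of kek4, which encodes a transmembrane protein with leucine-rich repeats, was 489 bp from the gene and 673 bp from the summit. U2:34ABa, whose nearest coding start (CG15482) was only 111 bp away, reached 69.3 pooled, 35.9 and 26.0 and did not pass. The weakest strongest summit of any member, 22.8 pooled, belonged to U2:38ABa. U2:14B had 27.8 pooled, 12 in replicate 1 and 4.8 in replicate 2. U2:34ABc and its neighbour U5:34A shared 1 ranked summit of 42.8 that did not pass, and U2:38ABb had none.

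U4 pairs with U6 before splicing starts, and 1 of its 3 genes was bound. U4:39B (FBgn0003930, chr2L:21215036-21215178, minus strand) lies in an intron of the autophagy gene Atg18b, on the same strand. Its signals were 119.3 pooled, 46.8 in replicate 1 and 77.3 in replicate 2, and of the replicates alone it passed in replicate 2 only. The 3 summits lay 47, 70 and 37 bp after the 5′ end in the same order, all inside the gene. U4:38AB had 61.4 pooled, 24.0 and 38.3, with each summit inside the gene, and did not pass. U4:25F, the most distant U4 copy in sequence, had 29.0 pooled, from a summit 487 bp upstream.

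U5, which holds the exon ends together, has 7 genes, of which 2 were bound. U5:35D (FBgn0003936, chr2L:15751557-15751682, minus strand) had signals of 133.4 pooled, 61.9 in replicate 1 and 58.0 in replicate 2, passing in both. Its summit, however, was 343 bp beyond the 3′ end and 468 bp from the 5′ end, while it was 136 bp upstream of the start of ND-B17, a gene of a mitochondrial complex I subunit. It was the only one of the 7 summits whose nearest gene start of any biotype was not that of an snRNA gene. U5:63BC (FBgn0003938, chr3L:3090801-3090923, plus strand, between genes) had signals of 105.4 pooled, 65.3 in replicate 1 and 45 in replicate 2, and of the replicates alone it passed in replicate 1 only. Its pooled summit lay 25 bp past the 3′ end, that of replicate 1 lay 69 bp past it, and that of replicate 2 inside the gene. U5:14B, U5:23D and U5:38ABb had no ranked summit within 500 bp in any list, and U5:38ABa had 25.3 pooled.

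The U6 genes, which encode the catalytic RNA of the spliceosome, lie in 1 cluster on 3R in the same direction, and 2 of 3 were bound through 1 summit. U6:96Ab (FBgn0004189, chr3R:24556692-24556798) and U6:96Ac (FBgn0004190, chr3R:24557215-24557321) flank the narrow peak chr3R:24557027-24557173, which is 147 bp wide. Its signal was 247.3 pooled, the highest within 500 bp of any member, 145.3 in replicate 1 and 94.0 in replicate 2, and it passed in both. The summit was 95 bp upstream of the 5′ end of U6:96Ac and 322 bp past the 3′ end of U6:96Ab. The replicates placed it 99 and 81 bp upstream of U6:96Ac. U6:96Aa (chr3R:24556088-24556194), in an intron of Esyt2 on the same strand, was 926 bp from that summit, and no other unbound member had a passing summit within 1000 bp. Its own strongest summit had a signal of 25.2 pooled, 18.2 in replicate 1 and 14.4 in replicate 2, none of which passed.

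The 2 genes named 7SK differed as well. 7SKa (FBgn0065099, chr3R:7474553-7474996, minus strand, between genes) had a pooled signal of 98.4, the lowest of the bound genes, with 46.1 in replicate 1 and 44.3 in replicate 2. It passed in neither replicate alone, although it was also in the conservative list. The pooled summit lay 138 bp after the 5′ end, inside the gene, and those of the replicates 153 and 281 bp after it, also inside. A much stronger passing peak, of 682.2 pooled, 377.9 and 308.0, lay 582 bp past its 3′ end and 190 bp upstream of the start of CG1142. 7SKb (chr3R:23432869-23433272, plus strand, in an intron of CG4374 on the other strand) had 37.4 pooled, 19.4 and 41.7, none of which passed. The annotated sequences of the pair were 48.9% identical.

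The single-copy genes of the minor spliceosome and U7 were not bound. U11 reached 54.2 pooled from a summit inside the gene, U6atac 41.5, U4atac 39.3 and U7 48.9, while U12 had a ranked summit in replicate 2 only (19.0). The gene LU, for which no polymerase was assigned, had 58.5 pooled, from a summit 427 bp past its 3′ end. By polymerase, 5 of 25 polymerase II genes were bound, or 20.0% (8.86 to 39.1%), and 3 of 6 polymerase III genes, or 50% (18.8 to 81.2%). The intervals overlap, and 2 of the 3 bound polymerase III genes share a summit. The polymerase was assigned by class, which came from the symbol. 7SKb, counted among the 6, had neither the word ATTCNCAA nor a TATA word in the 100 bases upstream.

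The 24 unbound members were not all without signal. In the pooled ranked list 26 of the 32 members had a summit within 500 bp, or 81.3%, against 84.7% of all annotated genes and 63.7% of the other short genes. The strongest such summit was above the median of all ranked peaks, 26.0, for 22 of the 26, or 84.6%, against 91.2% over all genes with one and 71.9% over the other short genes with one. The median over the 26 was 56.4, against 36.8 over the 1724 other short genes with such a summit and 53.6 over the 15478 annotated genes with one. The 18 unbound members with a summit had signals of 22.8 to 84.6 with a median of 42.2. The −log10 of the irreproducible discovery rate (IDR), which is at least 2 in every passing peak, was at most 1.53 among them and at least 2.54 among the bound genes. From unbound genes the nearest passing summit was 926 to 33964 bp away, with a median of 11097 bp.

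Each replicate alone called 6 of the 32 genes bound, or 18.8% (8.89 to 35.3%). Of all annotated genes, replicate 1 called 16.5% and replicate 2 called 15.7%. Of the 8 genes bound in the pooled list, 5 passed in both replicates, U4:39B and U5:63BC in 1 replicate each, and 7SKa in neither. The conservative list bound the same 8 genes, beside 20.4% of all genes. Strongest signals of the 25 members with a ranked summit in both replicates had a Spearman's rho of 0.786 between replicates. That value describes these genes, of which some share a summit or near-identical sequence.

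**Figure D2:**
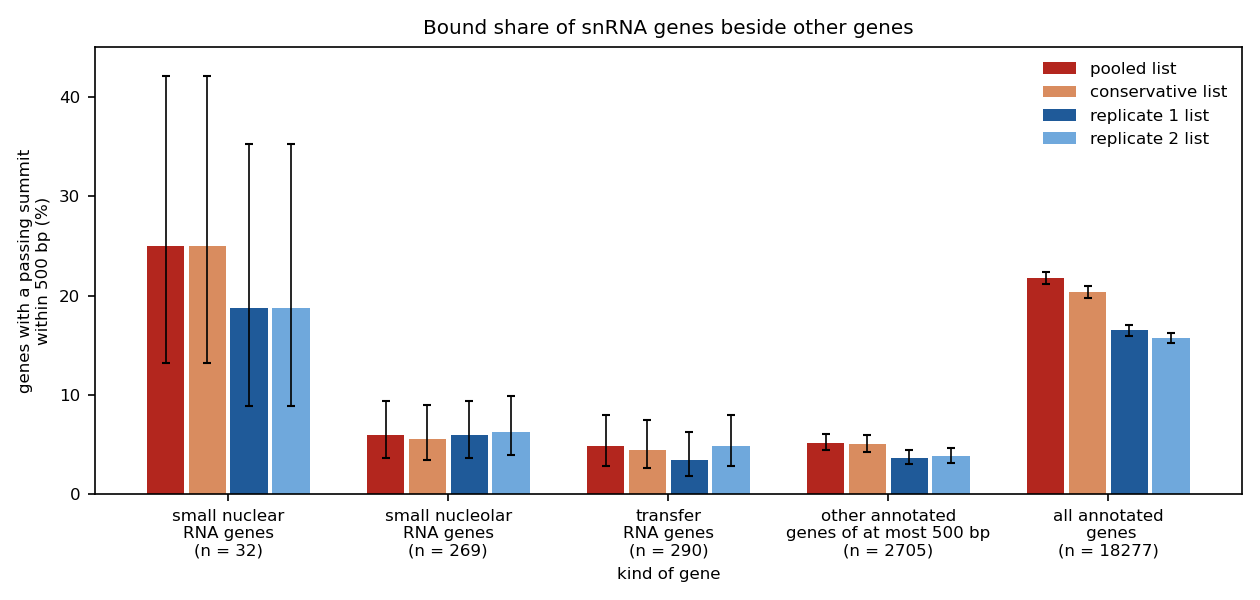
Share of genes with a passing summit within 500 bp, in percent, for snRNA genes, 2 other kinds of small RNA gene, all other genes of at most 500 bp and all annotated genes, in 4 lists. Error bars show 95% intervals by Wilson's method, which count each gene as independent. The snRNA bars stand at 25.0% and 18.8%, near those of all genes and above those of the other short genes.

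Other kinds of small RNA gene had lower bound shares in these lists. Small nucleolar RNA genes, which guide the modification of ribosomal RNA, had 16 of 269 bound in the pooled list, or 5.95% (3.69 to 9.44%). Transfer RNA genes, which polymerase III transcribes from internal promoters, had 14 of 290, or 4.83% (2.90 to 7.94%). In replicate 1 the shares were 5.95% and 3.45%, and in replicate 2 they were 6.32% and 4.83%, beside 18.8% of snRNA genes in each. The intervals of snRNA genes and of transfer RNA genes did not overlap in any of the 4 lists. Those of snRNA and nucleolar RNA genes did not overlap in the pooled and conservative lists but did in each replicate alone. The lists come from the same 2 replicates and are not separate evidence. For the 9 snRNA genes with at most 50% of words found elsewhere, the pooled interval was 1.99 to 43.5%. It holds both 5.95% and 4.83%. The difference itself was not tested, since genes are not replicates, some snRNA genes share a summit or sequence, and the neighbours of these genes differ.

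Most members had no coding start near the gene, whether they were bound or not. Only 5 of the 32 members had a protein-coding transcription start site (TSS) within 500 bp. Of these, 2 were bound, U2:34ABb and U5:35D, or 40.0% (11.8 to 76.9%). Of the 27 without one, 6 were bound, or 22.2% (10.6 to 40.8%), and the intervals overlap. Other genes of at most 500 bp without a coding start within 500 bp were bound in 4.13% of cases, and those with one in 7.63%. The median distance from a member to the nearest coding start was 3251 bp. Measured from the summit, 1 of the 7, that at U5:35D, had a coding start within 500 bp.

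The pooled summits were placed mostly within or just past the transcribed part of the gene. These positions are approximate, since chromatin fragments were 200 to 800 bp and the median member was 154 bp long. Replicate summits lay up to 143 bp from the pooled one, at 7SKa. Of the 7 distinct summits, 4 were inside the snRNA gene, 2 downstream and 1 upstream, counting the shared U6 summit from U6:96Ac. The offsets from the 5′ end were −95, 47, 70, 138, 147, 184 and 468 bp. Under the same rule the strongest passing summit had a median offset of 142.5 bp over the 8 bound snRNA genes, 58 bp over all bound genes and 71 bp over the other bound short genes, all downstream. It was −219.5 bp for nucleolar RNA genes and −139 bp for transfer RNA genes. The snRNA median counts the shared U6 summit from both genes, at −95 and 428 bp. Over the 7 distinct summits it was 138 bp. By another rule, the 2079 passing summits within 500 bp of a protein-coding start had a median offset of −78 bp from it. The strongest passing summit lay inside the gene for 4 of the 8 bound snRNA genes, for 0 of 16 bound nucleolar RNA genes, for 1 of 14 bound transfer RNA genes and for 28 of the 141 other bound short genes. Over all annotated genes, most of them longer, it lay inside for 1721 of 3982, or 43.2%, near the share of snRNA genes. Measured to the 5′ end alone, with no allowance for gene length, 8 snRNA genes were again bound. The share of all genes dropped to 13.8%, just inside the snRNA interval of 13.3 to 42.1%.

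**Figure D3:**
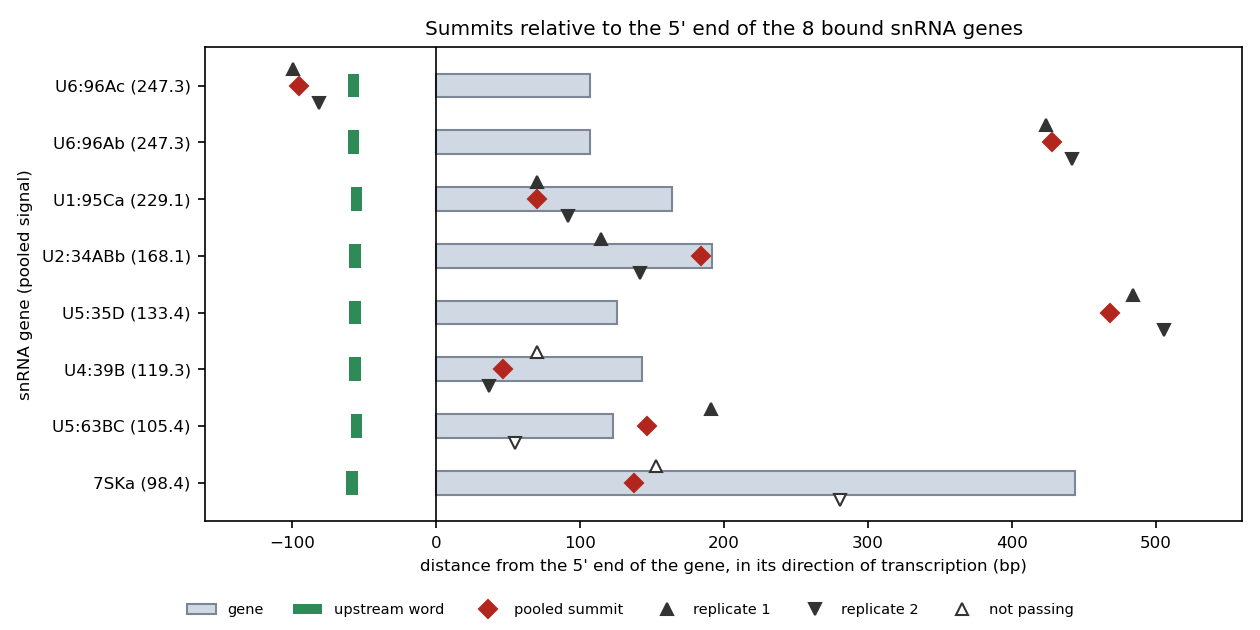
Position of the strongest summit near the 8 bound snRNA genes, in bp from the annotated 5′ end along the direction of transcription, in the pooled list (diamonds) and in each replicate's list (triangles, open where the peak did not pass). Grey bars are the genes and green bars the upstream word. The pooled summits of U1:95Ca, U2:34ABb, U4:39B and 7SKa lie inside the gene, and the summit shared by the U6 pair lies 95 bp upstream of U6:96Ac.

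The DNA under the summits is shown for contrasting cases, as a window centred on the pooled summit in the direction of the snRNA gene, with bases of that gene in capitals. At U1:95Ca the whole window is snRNA sequence, at U2:34ABb it crosses the 3′ end, and at U6:96Ac and U5:35D it holds no snRNA base.
snRNA:U1:95Ca, chr3R:23859510-23859610, minus strand: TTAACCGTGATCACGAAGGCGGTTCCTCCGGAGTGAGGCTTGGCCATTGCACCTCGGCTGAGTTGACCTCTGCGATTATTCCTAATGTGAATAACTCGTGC
snRNA:U2:34ABb, chr2L:13215973-13216073, plus strand: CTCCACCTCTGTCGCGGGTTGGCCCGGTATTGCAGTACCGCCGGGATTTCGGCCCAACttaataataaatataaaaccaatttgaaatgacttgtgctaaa
snRNA:U6:96Ac, chr3R:24557070-24557170, plus strand: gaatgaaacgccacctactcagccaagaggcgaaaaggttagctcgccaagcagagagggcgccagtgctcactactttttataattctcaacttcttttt
snRNA:U5:35D, chr2L:15751164-15751264, minus strand: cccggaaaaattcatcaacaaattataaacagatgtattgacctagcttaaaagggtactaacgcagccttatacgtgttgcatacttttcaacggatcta

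The word that the promoters share was ATTCCCAA, the 8-base word held by the most snRNA promoters. It was in 26 of the 32 windows from 250 bases before to 50 after the 5′ end, or 81.3%, against 1.69% of all 18277 gene promoters, counting both strands. Its first base lay 56 to 62 bases before the 5′ end in every case, with a median of 59. With any base at the 5th position, a change made after the sequences were seen, the word was within 100 bases upstream of 31 of the 32 genes, against 2.14% of all genes over the same 100 bases. 7SKb was the 1 gene without the word. A TATA word, TATAAA or TATATA on the gene's strand, started 28 to 31 bases before the 5′ end of 5 of the 6 polymerase III genes, 7SKb again excepted, and was in the 100 bases upstream of 0 of the 25 polymerase II genes.

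**Figure D4:**
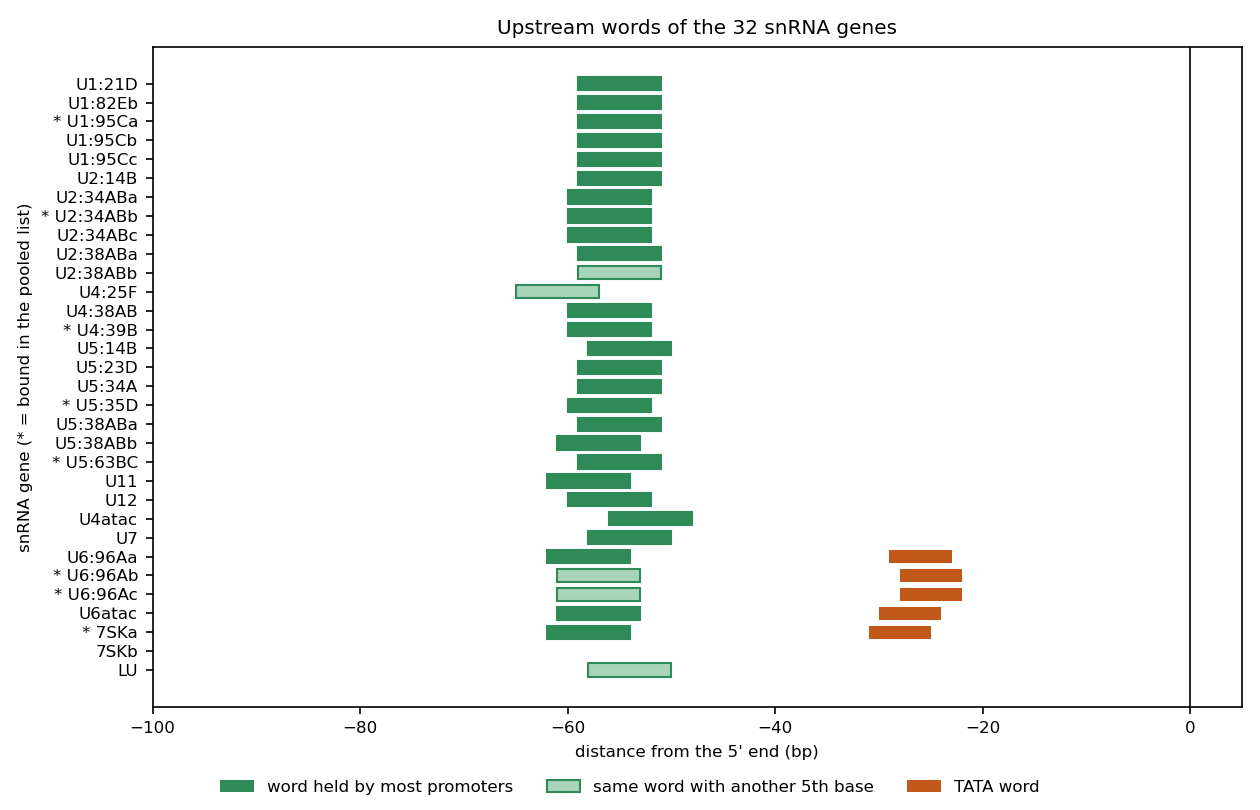
Upstream words of the 32 snRNA genes by distance from the 5′ end in bp. Dark green bars are the word held by most promoters, light green bars the same word with another 5th base, and orange bars a TATA word on the gene's strand. The word starts 56 to 65 bases upstream in 31 genes, bound genes (asterisks) and unbound genes alike.

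Bound and unbound genes alike had this element. The word with any 5th base was upstream of 8 of 8 bound and 23 of 24 unbound genes, and ATTCCCAA was in 6 of 8 and 20 of 24. Of the bound genes 3 had a TATA word, and of the unbound 2. Relative to the summit, the word started 34 bp downstream at U6:96Ac, but 107 bp upstream at U4:39B and 129, 200, 206, 244 and 528 bp upstream at U1:95Ca, 7SKa, U5:63BC, U2:34ABb and U5:35D. With chromatin fragments of 200 to 800 bp these distances are approximate. Within 100 bp of the summit ATTCCCAA was in 0 of the 7 windows, and ATTCNCAA in 1, that of the U6 pair.

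Words known from promoters and insulators were sought as well. TATCGATA, the site of Dref, was in 0 of 32 snRNA promoters against 7.48% of all promoters, and the E-box CAGCTG was in 1 against 16.1%. The BEAF-32 word CGATA, which TATCGATA contains, was in 18 of 32, against 44.3% of all promoters, the GAGA word GAGAG in 9 against 29.5%, and TATAAA in 15 against 43.9%. In the windows within 100 bp of the 7 summits, TATCGATA, CGATA and CAGCTG were in 0, and GAGAG and TATAAA in 3 each. Over all passing summits these shares were 3.89, 29.1, 10.6, 24.3 and 28.6% in the same order. A match, or the lack of one, says only whether the letters are in the window.

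Copies of an snRNA share sequence, and reads from such stretches can be placed at more than 1 gene. How the authors handled such reads is not stated in the labels. The 3 U6 genes were identical over their 107 bases. U1 copies were 98.2 to 100% identical and U2 copies 98.4 to 100%, while U4 copies were 73.8 to 94.4% and U5 copies 78.5 to 96.1%. U1:95Ca was identical to U1:21D and U1:95Cb, and U2:34ABb to U2:34ABc, and in both sets 1 copy was bound. Of the 23 genes in which over 50% of the words of 31 bases occur elsewhere in the genome, 7 were bound, and of the 9 others 1, 7SKa. The summit of the U6 pair lies between the genes, where repeated words were not counted. How far shared reads enter the summits, inside the genes or near them, was not tested.

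The protein-coding genes that make, process and package snRNAs were examined under a promoter rule. Of 48 such genes, 13 had a passing summit within 500 bp of a TSS, or 27.1% (16.6 to 41.0%), against 18.6% of all protein-coding genes under the same rule. That interval holds 18.6%. The replicates alone bound 10 and 11, with no share of all protein-coding genes to set beside them. Integrator, which cleaves the 3′ end of polymerase II snRNAs, had 6 of 14 genes bound, and polymerase III factors had 2 of 6. The Sm core, the protein ring on most snRNAs, had 2 of 7, the 7SK particle 2 of 5 and the cap and export group 1 of 5. In the lists of the replicates alone the 7SK particle had 0 in replicate 1 and 1 in replicate 2. SNAPc had 0 of 3, the little elongation complex 0 of 4 and the SMN assembly complex 0 of 4.

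The strongest peaks of these groups were at Brf and Bdp1, subunits of the polymerase III initiation factor TFIIIB, at the Integrator genes IntS11 and IntS6, at SNRPG, the gene of SmG, and at the cap-binding gene Cbp20. Brf had 373.7 pooled, 196.6 in replicate 1 and 158.6 in replicate 2, with the summit 130 bp upstream of its TSS. IntS11, the gene of the Integrator endonuclease, had 367.5 pooled, 207.9 and 149.1, at −131 bp. Bdp1 had 356.2 pooled, 189.7 and 164.7, at −152 bp. All 6 genes passed in both replicates. SNRPG had 340.9 pooled, 187.2 and 146.4, IntS6 had 237.5 pooled, 166.4 and 85.7, and Cbp20 had 222.9 pooled, 102.1 and 120.2. Of the 6, only Cbp20 had the summit nearest to its own TSS, at 29 bp. The others were nearer to a neighbouring start, sds22 for Brf at 127 bp, Wdr24 for IntS11 at 114 bp and CG6565 for Bdp1 at 23 bp. For SNRPG that start was mthl1 at 211 bp, and for IntS6 it was Rtel1 at 94 bp. Among the weaker bound genes, IntS9 and Larp7 also had a nearer neighbouring start, CG43295 at 99 bp and mxc at 147 bp.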

How the data were processed

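Peak lists from ChIP-seq of CG11247-eGFP embryos, 1 group of 2 biological replicates, were used as the authors deposited them on dm6, per the labels. The deposited lists hold a signal, a score of the authors' peak caller, the offset of the summit from the peak start and, in ranked lists, the −log10 of the global IDR as the authors deposited it. Passing peaks are those of the thresholded lists, which per the deposited listing had 1 further undescribed input. The aligner was not given in the sources used here, nor was the peak caller. Read depth is unknown. Wilson 95% intervals (statsmodels 0.14.6) cover the counting of genes only and do not measure the precision of the experiment.

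Genes came from Ensembl release 115 without transposable elements, leaving out 81 genes off the arms, and sequences from the RefSeq genome of the same assembly. Each gene took its strongest ranked summit within 500 bp. Classes came from symbols. Copies were aligned with Biopython 1.88, and words of 31 bases were counted over the genome on both strands. Counting was checked on summits placed at known distances. With 1 group there was no test. Values from each replicate's own list are given beside the pooled ones, in lists whose scales differ. Named genes were every bound, U6 and 7SK gene, the highest and lowest of the rest, their coding neighbours and the 6 strongest bound pathway genes. The remaining members are named so that each is accounted for. Members, lists and rules were chosen with earlier results of these data known. Alternatives were other distances, hit rules and lists, each replicate alone, loci in place of genes and other word windows. Alternatives added after the data were seen were a word with any 5th base and leaving out repeated copies.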

Additional observations from a re-analysis of the deposited data

How the results depend on the processing

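Between 5 and 9 snRNA genes were bound under each alternative that kept all 32 genes. There were 5 in the stronger 50% of passing peaks and 5 where the peak had to overlap the gene, 6 at 200 bp, and 9 at 1000 bp. The conservative list, peaks at an IDR of at most 0.01, the 5′ end rule and the symbol rule each gave 8, and the range with 1 replicate left out was 6 to 6. Of the 27 genes away from coding starts 6 were bound, and of 26 loci 7. Leaving out genes repeated elsewhere left 9 genes with 1 bound. The share of all annotated genes was 18.2% at 200 bp, 24.8% at 1000 bp, 14.1% in the stronger 50%, 20.4% in the conservative list, 13.8% by the 5′ end and 16.4% by overlap, and 15.7 to 16.5% with 1 replicate left out.

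The median strongest signal of 56.4 became 61.4 at 200 bp, and 25.4 to 30.4 with 1 replicate left out, in lists whose scales differ. The median offset of the strongest passing summit over the 8 bound genes, 142.5 bp, became 104.0 at 200 bp, 184.0 at 1000 bp and 184.0 in the stronger 50%, and was 117.0 to 153.0 with 1 replicate left out. The shared word was in 96.9% of promoters with any 5th base. No paired analysis was possible because there is only 1 group. Unknown read depth, 32 members and the control not analysed here limit these counts.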
